A study of Arabidopsis thaliana with 30 samples.

Results

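The change in transcript levels between 8 and 12 days after flowering (DAF) was measured in seeds of the Arabidopsis thaliana mutant fus3-3. It rests on 6 of the 30 arrays of the series, 3 of fus3-3 seeds at 8 DAF and 3 of fus3-3 seeds at 12 DAF, chosen by their titles. The labels name Col-0 wild-type seeds as the controls for fus3-3, and 6 arrays of them at 8 and 12 DAF served as the comparison. Seeds of the WS wild type and of the lec1-1 and lec2-1 mutants at both ages, 3 arrays each, are given beside them in places. All plants grew in long days, no group received a treatment, and the seeds were dissected from the fruit, so embryo, endosperm and seed coat were measured together. The labels call the arrays of a group biological replicates, but number those of Col-0 at 12 DAF 1-1, 1-2 and 1-3. How these relate to each other is unclear. The spread was estimated over the fus3-3 and Col-0 arrays together, so these arrays enter the SEs and p-values of fus3-3 as well as those of Col-0.

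FUS3 is a B3-domain transcription factor that, with LEC1, LEC2 and ABI3, directs seed maturation. In this phase the embryo stops dividing, fills with storage protein and oil, and acquires late embryogenesis abundant (LEA) proteins, which protect cells during drying. Wild-type Arabidopsis embryos are green while they fill and lose their photosynthetic transcripts later in maturation. Seeds of fus3 mutants are known to be intolerant of drying and to take on traits of seedlings, such as leaf-like cotyledons. FUS3, LEC1, LEC2 and ABI3 had no probe set paired with them alone in the annotation used, so the fus3-3 label was not checked against the mutated gene.

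Values are log2 signal, on which a step of 1 is a 2-fold difference, and ± after a change is the standard error (SE) of the fit. Rose and fell are used only of probe sets, or genes paired with them, that moved 2-fold or more with an adjusted p below 0.05 in limma. A total of 22746 probe sets were tested, of which 1 for each of 13355 genes is used for named genes. Group means under 3 lie near the lowest values on the arrays, so a change that starts or ends there gives only the least it can have been, and no order of size is read from such changes. Replicate arrays of fus3-3 seeds correlated at r of 0.988 to 0.989 at 8 DAF and 0.984 to 0.988 at 12 DAF across probe sets. The signal of the actin control at its 3' end over its 5' end, a sign of RNA quality, was 5.59, 5.68 and 5.54 log2 units at 8 DAF and 5.55, 6.78 and 5.4 at 12 DAF, so replicate 2 at 12 DAF stood apart. That of GAPDH was 1.01, 1.3 and 1.87 at 8 DAF and 1.71, 2.08 and 1.97 at 12 DAF. Precision is limited by having 3 arrays of each age.

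Between 8 and 12 DAF, 6 of 8 measured ER body and jacalin lectin genes rose in fus3-3 seeds, against 1 in Col-0. Of 4 seed coat markers 3 fell in fus3-3 and 4 in Col-0. Of 26 LEA genes 3 rose, against 20 in Col-0, and of 6 chlorophyll synthesis genes 0 fell, against 6 in Col-0. Genes with large fitted changes encode, among others, latex-protein-like and lipid-transfer-like proteins, which rose. They also include the pectin methylesterase genes ATPMEPCRD and AT5G49180, which fell, whereas AT3G60730, of the same family, rose. In fus3-3 seeds 2461 probe sets changed (10.8% of those tested), of which 1170 rose (5.14%) and 1291 fell (5.68%). In Col-0, 2094 rose (9.21%) and 2567 fell (11.3%). Of all 13355 genes, 4.33% rose and 4.84% fell in fus3-3, and 8.47% rose and 9.75% fell in Col-0. Counts of list members are to be read beside these shares. Of the 2461 probe sets that changed in fus3-3, the 3 arrays of one age did not overlap the 3 of the other for 2442, against 29.6% of all probe sets. The calls were made on the same arrays, so this describes the calls and is no separate support. The lower of the group means was under 3 for 572 of the 2461. Without replicate 2 of 12 DAF, the array whose actin control stood apart, 1169 rose and 1199 fell.

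The same replicate numbers at 8 and 12 DAF deviated together in fus3-3, with correlations of deviations from the group means of 0.238, 0.212 and 0.426 for the same numbers and -0.253 to 0.047 for different numbers. Read as 3 pairs of arrays, with the 6 fus3-3 arrays alone in the fit, 992 probe sets rose and 1064 fell. Of the 2056 called in that paired fit, 1982 were also called in the fit above. The same 6 arrays without the pairing gave 2076 calls, so a call lost in the paired fit may be lost through the smaller number of arrays, and where the 6 arrays lost it unpaired too, that adjusted p is given. Among the 2461 probe sets called above, 2460 moved the same way in all 3 pairs, against 44.1% of all probe sets. Ages that do not overlap force this, and the calls were made on the same arrays, so it is no separate support.

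**Figure D1:**
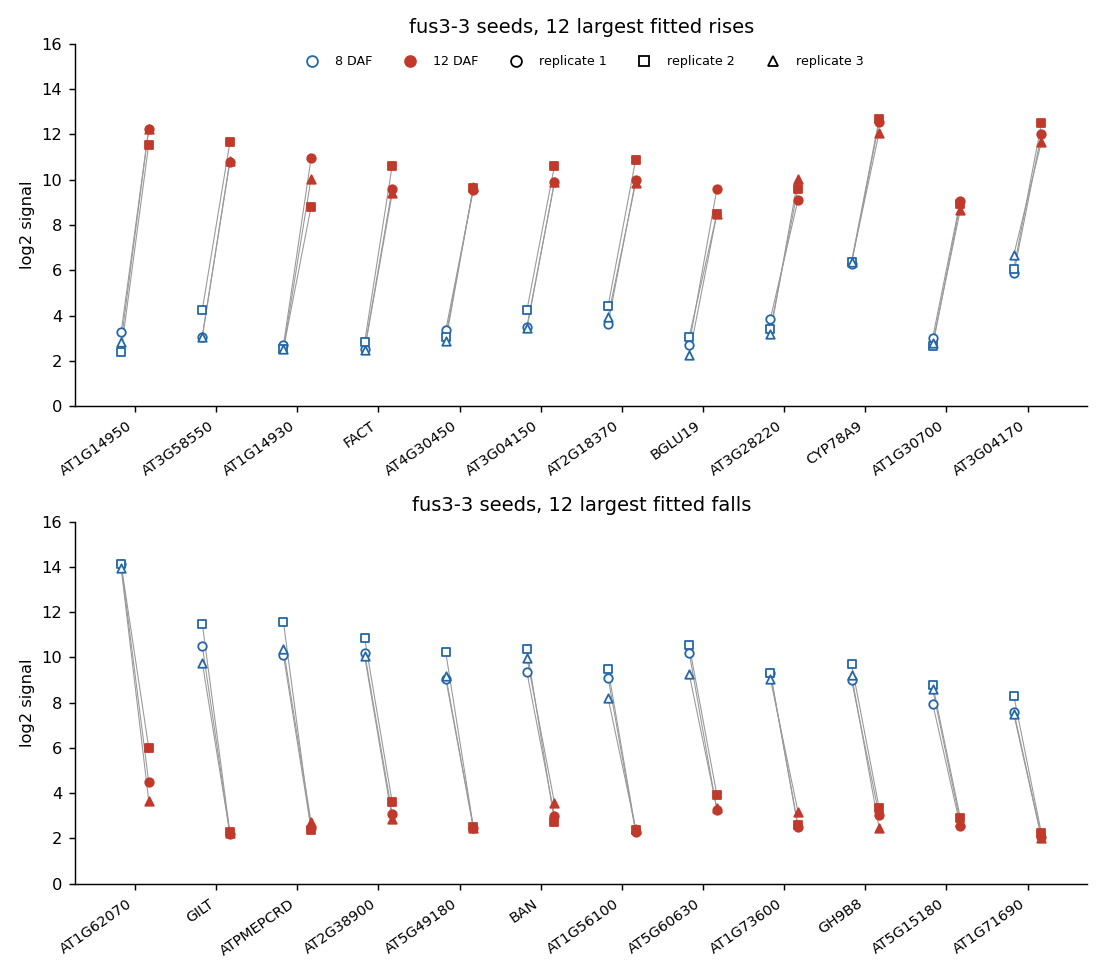
Log2 signal on each fus3-3 array for the genes with the largest fitted rises (top) and falls (bottom) among genes whose arrays do not overlap, many with a group mean under 3, so that their order is not read. Open blue symbols are 8 DAF, filled red symbols 12 DAF, symbol shapes mark the replicate number, and grey lines join arrays of the same number. The 24 genes were chosen so that the ages do not overlap, and all 3 lines run the same way by that choice.

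AT1G14950, AT1G14930 and AT1G14940 are neighbours that encode major latex protein-like proteins, a family related to birch pollen allergens. AT1G14950 had log2 signals of 3.25, 2.41 and 2.84 at 8 DAF and 12.23, 11.55 and 12.25 at 12 DAF, a change of 9.18 ± 0.24 (adjusted p = 4e-08). AT1G14930 went from 2.68, 2.53 and 2.52 to 10.94, 8.80 and 10.05 (7.35 ± 0.42, adjusted p = 4e-06). AT1G14940, between them on the chromosome in the TAIR10.1 gene table, changed by 4.23 ± 0.53 (adjusted p = 0.00049). All 3 were near background on every 8 DAF array and above it on every 12 DAF array. In Col-0 these genes rose as well, AT1G14950 by 6.54 ± 0.24, AT1G14930 by 10.22 ± 0.42 and AT1G14940 by 10.31 ± 0.53. The members of this cluster are close in sequence, and how far their probe sets share signal was not tested.

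FACT, which encodes a fatty alcohol caffeoyl transferase that makes wax esters, went from 2.52, 2.81 and 2.47 to 9.61, 10.63 and 9.40 (7.28 ± 0.30, adjusted p = 6.2e-07). Lipid-transfer-like proteins bind lipids outside the cell, and AT3G58550, of that family, rose from 3.07, 4.26 and 3.06 to 10.79, 11.65 and 10.85 (7.63 ± 0.34, adjusted p = 9.3e-07). AT2G18370, of the same family, rose by 6.25 ± 0.30. The germin-like genes AT3G04150 and AT3G04170, which encode secreted cupin proteins, rose by 6.42 ± 0.26 and 5.86 ± 0.25. AT1G30700, of the berberine bridge enzyme-like oxidoreductases, rose by 6.07 ± 0.18. In Col-0 seeds the same 6 genes rose as well, by 7.42 to 10.14. Several start at a group mean under 3 in fus3-3, Col-0 or both, so the sizes are not ordered between the genotypes.

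CYP78A9, a cytochrome P450 that promotes seed and fruit growth, was already above background at 8 DAF. Its signals were 6.29, 6.37 and 6.37 at 8 DAF and 12.54, 12.68 and 12.09 at 12 DAF, a rise of 6.09 ± 0.18 (adjusted p = 8e-08), with Col-0 at 3.27 and 13.30. AT4G30450, which encodes a glycine-rich protein, went from 3.35, 3.07 and 2.87 to 9.56, 9.65 and 9.69 (6.54 ± 0.15, adjusted p = 1.8e-08). AT3G28220, of the TRAF-like family, rose from 3.86, 3.40 and 3.20 to 9.10, 9.61 and 10.02 (6.09 ± 0.29, adjusted p = 1.2e-06). The last 2 did not rise in Col-0, where they changed by -0.12 and -1.9998. Genes picked after their values were seen were the chitinase gene ChiC at 5.28 (adjusted p = 9.5e-07), the thionin gene THI2.1 at 5.26 (adjusted p = 6.3e-06) and the osmotin gene OSM34 at 3.90 (adjusted p = 0.0009). THI2.1 and OSM34 changed by 0.01 and 0.01 in Col-0.

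ATPMEPCRD, a pectin methylesterase gene, went from 10.12, 11.56 and 10.38 at 8 DAF to 2.45, 2.39 and 2.73 at 12 DAF (-8.16 ± 0.31, adjusted p = 3.9e-07). AT5G49180, of the same enzyme family, went from 9.06, 10.23 and 9.20 to 2.48, 2.51 and 2.48 (-7.01 ± 0.31, adjusted p = 9.3e-07). GH9B8, an endoglucanase gene, went from 9.003, 9.70 and 9.22 to 3.03, 3.35 and 2.46 (-6.36 ± 0.29, adjusted p = 1e-06). All 3 were well above background on every 8 DAF array and near it on every 12 DAF array. In Col-0 these genes fell as well, ATPMEPCRD at -9.27 ± 0.31, AT5G49180 at -5.25 ± 0.31 and GH9B8 at -1.74 ± 0.29. AT1G71690, a relative of glucuronoxylan methyltransferases, changed by -5.69 ± 0.25, and its neighbour AT1G71691, of the GDSL lipase family, by -4.24 (adjusted p = 1.3e-05).

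AT1G62070, for which no function is known here, went from 14.11, 14.11 and 13.96 to 4.49, 6.01 and 3.67 (-9.34 ± 0.57, adjusted p = 6e-06). GILT, a gamma-interferon-inducible thiol reductase gene, went from 10.52, 11.49 and 9.77 to 2.21, 2.26 and 2.22 (-8.36 ± 0.33, adjusted p = 5.8e-07). AT2G38900, a potato type I protease inhibitor gene, went from 10.20, 10.86 and 10.07 to 3.08, 3.61 and 2.86 (-7.19 ± 0.25, adjusted p = 2.9e-07). In Col-0, AT1G62070 and GILT also fell, by 6.04 and 9.71 on the log2 scale, whereas AT2G38900 stood at 10.69 and 11.46. AT1G73600, a phosphoethanolamine methyltransferase gene, fell by 6.47, the peroxidase gene AT5G15180 by 5.71, AT1G56100 by 6.58 and AT5G60630 by 6.49 on the log2 scale.

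Seed maturation genes did not move as a block. Of 23 maturation regulators listed, 4 were measured, of which 2 rose and 1 fell, with a median change of 0.573, where 9.17% of all genes changed, 4.33% rising and 4.84% falling, and the median of all genes was 0.00599. AGL67, a MADS-box gene of late seed development, had signals of 2.52, 2.17 and 2.16 at 8 DAF and 5.04, 4.83 and 4.56 at 12 DAF (2.53 ± 0.25, adjusted p = 0.0001). In Col-0 AGL67 went from 4.69 to 10.47, with a fitted difference of -3.25 ± 0.35 (adjusted p = 0.00017). The fus3-3 arrays at 8 DAF lay near background, so the sizes of the rises are not ordered. EEL, a bZIP factor of late embryogenesis, had 8.28, 7.64 and 8.64 at 8 DAF and 9.46, 9.47 and 9.38 at 12 DAF (1.25 ± 0.22, adjusted p = 0.0037). Read as pairs, EEL had an adjusted p of 0.066, and without replicate 2 of 8 DAF its change was 0.98. BBM, an AP2 factor of the early embryo, went from 5.51, 4.80 and 4.73 to 2.77, 2.58 and 2.601 (-2.36 ± 0.25, adjusted p = 0.00017). Its arrays did not overlap between ages in fus3-3, and in Col-0 it stood at 5.46 and 6.07. BZIP53, a partner of ABI3, had a change of -0.10 ± 0.17 (adjusted p = 0.89).

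Of 13 seed storage genes listed, 5 were measured, of which 2 rose and 1 fell (4.33% and 4.84% of all genes), with a median change of 0.738. AT1G03890, a relative of the cruciferin storage globulins, was at 2.32, 2.11 and 2.11 on the 8 DAF arrays and at 8.60, 7.78 and 7.71 on the 12 DAF arrays (5.85 ± 0.27, adjusted p = 1.1e-06). It was at background at 8 DAF and stayed below the Col-0 level of the earlier age, 10.77 ± 0.50 (SD, n = 3), at 12 DAF. PAP85, a vicilin-like storage gene, had 12.30, 11.08 and 11.86 and then 13.47, 12.89 and 12.63 (1.25 ± 0.30, adjusted p = 0.017). With the 6 fus3-3 arrays alone its adjusted p was 0.061 as pairs and 0.11 unpaired, and its change was 0.91 without replicate 2 of 8 DAF and 1.01 (adjusted p = 0.059) without replicate 1 of 12 DAF. The cupin gene AT4G36700 went the other way, from 11.87, 11.51 and 11.89 to 10.52, 10.03 and 9.46 (-1.75 ± 0.22, adjusted p = 0.00051), while in Col-0 it changed by -0.08 ± 0.22. AT2G28490 and AT2G18540, the remaining cupins, changed by 0.74 ± 0.15 and -0.41 ± 0.25.

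No measured oil body or oil synthesis gene rose. Of 13 oil body genes, 4 were measured, of which 0 rose and 1 fell (1 rose without replicate 1 of 8 DAF). Of all genes 4.33% rose and 4.84% fell in fus3-3. OLEO3, an oleosin gene of the oil body coat, went from 13.82, 13.17 and 13.46 to 11.69, 10.98 and 10.40 (-2.46 ± 0.32, adjusted p = 0.00058), and no 12 DAF array reached an 8 DAF array. The oleosin genes AT3G18570, AT3G01570 and AT2G25890 changed by -0.16 ± 0.30, 0.005 ± 0.20 and 0.74 ± 0.31 in fus3-3. In Col-0, AT3G18570 and AT2G25890 rose, by 2.19 ± 0.30 and 4.03 ± 0.31, and the difference between the genotypes passed the threshold for both and for OLEO3 (adjusted p = 0.003, 0.00064 and 0.044). Of 25 genes of fatty acid and oil synthesis, 3 were measured. FaTA, an acyl-ACP thioesterase gene that releases fatty acids from the plastid, went from 8.35, 8.12 and 7.89 to 5.14, 4.87 and 5.16 (-3.07 ± 0.17, adjusted p = 3e-06), against -0.19 ± 0.17 in Col-0. Its relative AT4G13050 changed by -1.76 ± 0.60 (adjusted p = 0.076) and FATB by -0.13 ± 0.21, and without replicate 3 of 8 DAF 2 of the 3 genes fell. ICL, the isocitrate lyase of the glyoxylate cycle that turns oil into sugar in seedlings, went from 10.08, 10.05 and 10.27 to 13.87, 14.02 and 13.66 (3.72 ± 0.18, adjusted p = 1.2e-06), and it rose in Col-0 as well, by 2.83 ± 0.18. The oil lipase gene SDP1 changed by 0.88 ± 0.19, short of 2-fold, and 2 of the 3 measured lipid mobilisation genes rose without replicate 3 of 12 DAF.

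Most LEA genes moved in Col-0 and few did in fus3-3. Of 39 LEA genes, 26 were measured. In fus3-3, 3 rose and 1 fell (4.33% and 4.84% of all genes), with a median change of 0.391. In Col-0, 20 rose and 2 fell (8.47% and 9.75% of all genes), with a median of 4.22. The difference between the genotypes passed the threshold for 21 of the 26 (16.1% of all genes), lower in fus3-3 for 20 of them (7.68% of all genes). The mean signal over the 26 genes lay between 7.77 and 8.12 on the 8 DAF arrays of fus3-3 and between 8.13 and 8.67 on the 12 DAF arrays, against group means of 5.90 and 9.42 in Col-0.

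AT3G15670, a LEA gene, shows the pattern, with 13.82, 13.26 and 13.18 at 8 DAF and 13.63, 14.001 and 13.14 at 12 DAF in fus3-3 (0.17 ± 0.35, adjusted p = 0.95). In Col-0 it went from 7.23, 7.49 and 6.13 to 14.47, 14.67 and 14.42. LEA4-5, which protects against water loss, had 12.10, 11.52 and 11.74 and 11.23, 11.72 and 11.39 in fus3-3 and group means of 6.45 and 10.90 in Col-0. In both genes the fus3-3 arrays at 8 DAF were above every Col-0 array at 8 DAF, and the fus3-3 ages overlapped. Others stayed low in fus3-3 throughout. M17 had 2.48, 2.43 and 2.38 and 2.47, 2.62 and 2.41 in fus3-3, while Col-0 reached 6.85 at 12 DAF. The LEA genes that did rise in fus3-3 were AT2G23110 by 3.84 ± 0.43, AT1G22600 by 1.84 ± 0.32 and LEA18 by 1.09 ± 0.24. LEA18 had an adjusted p of 0.061 read as pairs and a change of 0.87 without replicate 2 of 8 DAF. COR47, a dehydrin gene of the cold response, fell in both genotypes, at -2.16 ± 0.20 in fus3-3. The count of risen LEA genes was 5 without replicate 2 of Col-0 at 12 DAF, which enters the estimate of the spread, 5 with no fold minimum, 6 with all 30 arrays in 1 fit, and 2 at an adjusted p below 0.01 or without replicate 2 of fus3-3 at 8 DAF.

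**Figure D2:**
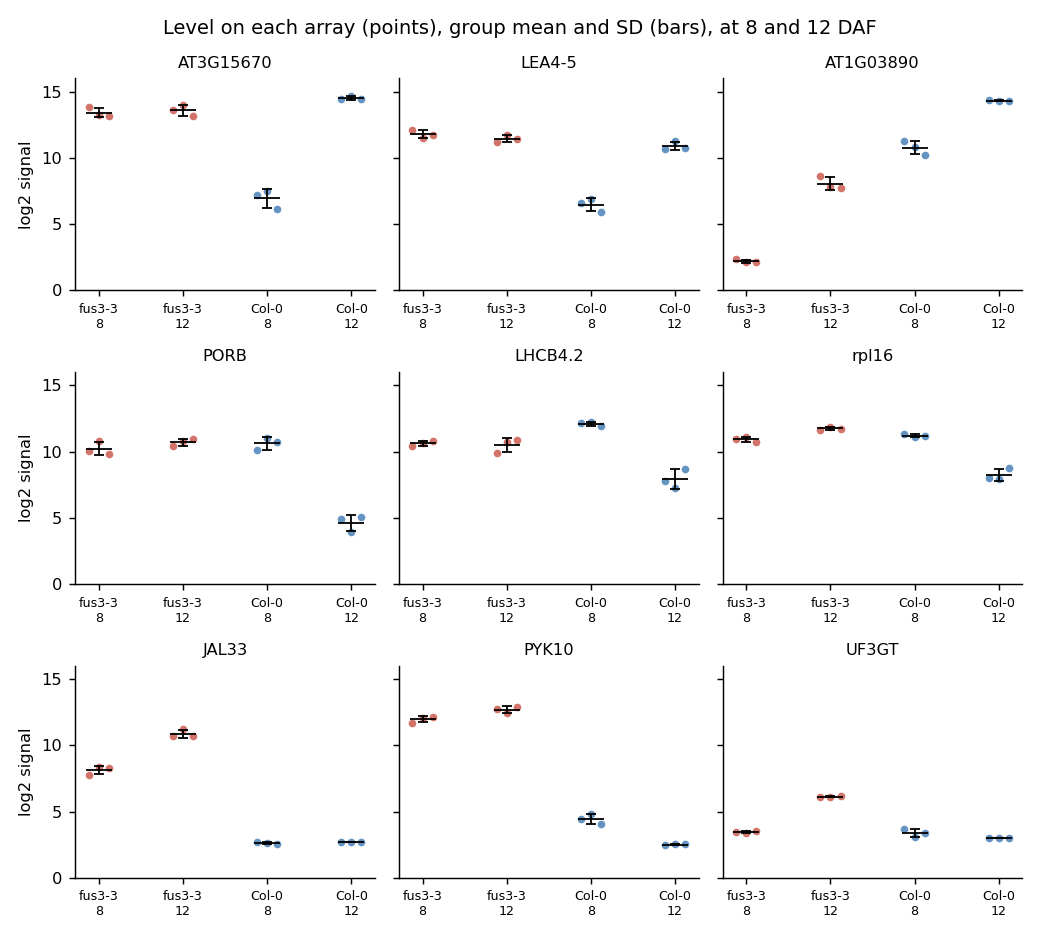
Log2 signal of 9 genes on each array (points) with the mean and SD of each group (bars, n = 3), for fus3-3 (red) and Col-0 (blue) at 8 and 12 DAF. The LEA genes AT3G15670 and LEA4-5 are level in fus3-3 and climb in Col-0, PORB, LHCB4.2 and rpl16 fall in Col-0 alone, and JAL33 and UF3GT climb in fus3-3 alone.

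Vacuolar processing enzymes, which cleave storage proteins, split. BETA-VPE, the seed type, went from 9.95, 9.39 and 9.85 to 11.91, 11.68 and 11.52 (1.97 ± 0.17, adjusted p = 5.4e-05). DELTA-VPE, which acts in the seed coat, went from 11.16, 11.96 and 11.83 to 9.81, 10.004 and 9.31 (-1.94 ± 0.28, adjusted p = 0.0011). Both moved the same way in Col-0, by 2.40 and -1.36. Of 9 measured small heat shock genes, chaperone genes that are switched on late in wild-type seeds, 2 rose in fus3-3 and 5 in Col-0. Of all genes 4.33% and 8.47% rose. AT4G21870 went from 4.04, 3.67 and 3.79 to 7.75, 7.36 and 7.85 (3.82 ± 0.16, adjusted p = 8e-07) and changed by -0.22 ± 0.16 in Col-0. AT5G37670 rose by 1.91 ± 0.27, against 3.42 ± 0.27 in Col-0. AT1G52560 and AT1G53540 stayed under 3 in fus3-3 at both ages, while in Col-0 they rose by 2.70 and 2.31.

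Most measured genes of the ER body and of jacalin-type lectins rose. The ER body is a compartment of the endoplasmic reticulum in seedlings and roots of the cabbage family that holds β-glucosidases. Jacalin-related lectins associate with these enzymes. Of 20 genes listed, 8 were measured, of which 6 rose and 0 fell, with a median change of 1.68 in fus3-3 and 0.046 in Col-0. Of all genes 4.33% rose and 4.84% fell in fus3-3, with a median of 0.00599. The mean over the 8 genes was 6.39 to 6.76 on the 8 DAF arrays and 8.90 to 9.03 on the 12 DAF arrays.

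NAI1, the bHLH factor needed for ER body formation, went from 4.82, 4.96 and 4.12 to 6.40, 6.68 and 6.28 (1.82 ± 0.22, adjusted p = 0.00032). NAI2, a structural component of the ER body, went from 9.50, 9.55 and 9.77 to 11.30, 10.98 and 11.17 (1.55 ± 0.29, adjusted p = 0.0049). PYK10, its main β-glucosidase, had 11.72, 12.04 and 12.17 and then 12.78, 12.43 and 12.92, a change of 0.73 ± 0.19 that stayed short of 2-fold. The arrays of the ages did not overlap for any of the 3 genes, and in Col-0 NAI2 and PYK10 fell, by 1.01 and 1.96 on the log2 scale. Among the lectins, JAL22 went from 3.28, 4.56 and 3.89 to 8.56, 9.07 and 8.71 (4.87 ± 0.27, adjusted p = 3.5e-06), JAL33 from 7.80, 8.38 and 8.28 to 10.68, 11.24 and 10.72 (2.73 ± 0.17) and JAL34 rose by 1.53 ± 0.13. JAL23 stayed at background, at 2.44 and 2.50.

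BGLU19, a β-glucosidase gene, behaved differently from the others on the list. It went from 2.72, 3.06 and 2.24 to 9.58, 8.49 and 8.48 in fus3-3 (6.17 ± 0.32, adjusted p = 2.5e-06), and it rose in Col-0 as well, to 12.47. The lectin gene AT3G21380 rose by 2.41 ± 0.19 in fus3-3 and by 8.70 ± 0.19 in Col-0. A lectin gene outside the list, AT1G52100, rose in fus3-3 from 3.59, 4.52 and 2.59 to 9.39, 9.40 and 9.32 (5.80 ± 0.37, adjusted p = 8.3e-06) and stayed at 2.43 and 2.51 in Col-0.

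Light harvesting and electron transport transcripts changed less in fus3-3 than in Col-0, where most fell. Of 55 genes of light harvesting and electron transport, 9 were measured. In fus3-3, 0 rose and 1 fell (4.33% and 4.84% of all genes), with a median change of -0.377. In Col-0, 8 fell (9.75% of all genes), with a median of -3.95. The difference passed the threshold for 7, higher in fus3-3 each time (8.43% of all genes). The mean over the 9 genes was 10.53 to 10.68 on the fus3-3 arrays at 8 DAF. At 12 DAF it was 9.73 to 10.17, without overlap. Group means in Col-0 were 11.99 and 8.64, so fus3-3 started lower. ATPC1, the gene for the γ subunit of the chloroplast ATP synthase, had 10.65, 10.95 and 9.82 at 8 DAF and 10.19, 10.42 and 10.22 at 12 DAF in fus3-3. In Col-0 it went from 11.72, 11.81 and 11.62 to 7.71, 5.77 and 7.55, a difference between the age changes of 4.51 ± 0.67 (adjusted p = 0.0011). LHCB4.2, an antenna protein gene, changed by -0.11 ± 0.37 in fus3-3 and -4.18 ± 0.37 in Col-0.

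LHCB4.3, the member that fell, had 7.83, 8.23 and 8.39 at 8 DAF and 5.75, 4.94 and 5.26 at 12 DAF (-2.83 ± 0.28, adjusted p = 0.00012), and it fell in Col-0 (-2.03 ± 0.28), with a difference of -0.80 ± 0.40 that did not pass the threshold (adjusted p = 0.2). Without replicate 3 of 12 DAF 3 of the 9 genes fell, and 2 fell without replicate 1 or 3 of 8 DAF or replicate 2 of 12 DAF. With no fold minimum 4 of the 9 fell and 1 rose. The 3 measured Calvin cycle genes changed by -0.04 to -0.9997 in fus3-3 and fell by 2.35 to 3.23 in Col-0. PRK, which encodes phosphoribulokinase, was at the fold threshold in fus3-3, with -0.9997 ± 0.21 (adjusted p = 0.0091) and it fell without replicate 2 of 12 DAF (-1.24, adjusted p = 0.0014) or replicate 1 of 8 DAF (-1.07, adjusted p = 0.019). RCA, the Rubisco activase gene, had 10.71, 10.68 and 10.58 and 10.17, 10.53 and 10.29 in fus3-3 (-0.32 ± 0.57, adjusted p = 0.91), so its ages did not overlap. The SE is shared with Col-0, whose 12 DAF arrays were spread, at 8.98, 8.82 and 6.40. With the 6 fus3-3 arrays alone the adjusted p was 0.15 as pairs and 0.13 unpaired.

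Chlorophyll synthesis genes showed the same difference. Of 6 measured, 0 rose and 0 fell in fus3-3 (median 0.343), and all 6 fell in Col-0 (median -2.88), where 9.75% of all genes fell. The difference passed the threshold for all 6 (16.1% of all genes). PORB, the light-dependent protochlorophyllide reductase gene, had 10.04, 10.78 and 9.83 at 8 DAF and 10.41, 10.83 and 10.92 at 12 DAF in fus3-3 (0.50 ± 0.37, adjusted p = 0.48). In Col-0 PORB went from 10.09, 11.03 and 10.73 to 4.93, 3.94 and 5.04, and the difference was 6.48 ± 0.52 (adjusted p = 3.3e-05). AT1G74470, the geranylgeranyl reductase gene, changed by 0.64 ± 0.17 (adjusted p = 0.024), which is under 2-fold. HEMB1, an early enzyme of the pathway, changed by 0.19 ± 0.14.

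The plastid genome was examined as well, in groups formed by gene symbol after values had been seen. Of 19 plastid genes for ribosomal proteins and RNA polymerase, 2 rose in fus3-3, rpl36 by 1.16 ± 0.24 (adjusted p = 0.0074) and rpoA by 1.02 ± 0.27 (adjusted p = 0.028). In Col-0, 15 of the 19 fell (9.75% of all genes), and the difference passed the threshold for 15 (16.1% of all genes). Of all genes 4.33% rose in fus3-3. The fus3-3 median was 0.586 and the Col-0 median -1.78. The ribosomal gene rpl16 had 10.97, 11.12 and 10.71 at 8 DAF and 11.63, 11.89 and 11.74 at 12 DAF in fus3-3, and 11.33, 11.12 and 11.16 and 8.03, 7.93 and 8.73 in Col-0. The count of risen genes ran from 0 without replicate 1 of 12 DAF to 4 without replicate 3 of 12 DAF or replicate 2 of 8 DAF. Of 45 plastid genes of photosynthesis and the NDH complex, 0 rose and 0 fell in fus3-3, with a median of -0.0155, and 8 fell in Col-0 (9.75% of all genes). Without replicate 3 of 12 DAF 4 of the 45 fell, without replicate 3 of 8 DAF 1 fell, and without replicate 2 of 12 DAF 1 rose. The labelling kit primes cDNA from poly(A) tails, which most plastid transcripts lack, and the part of this priming in the plastid values was not tested.

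**Figure D3:**
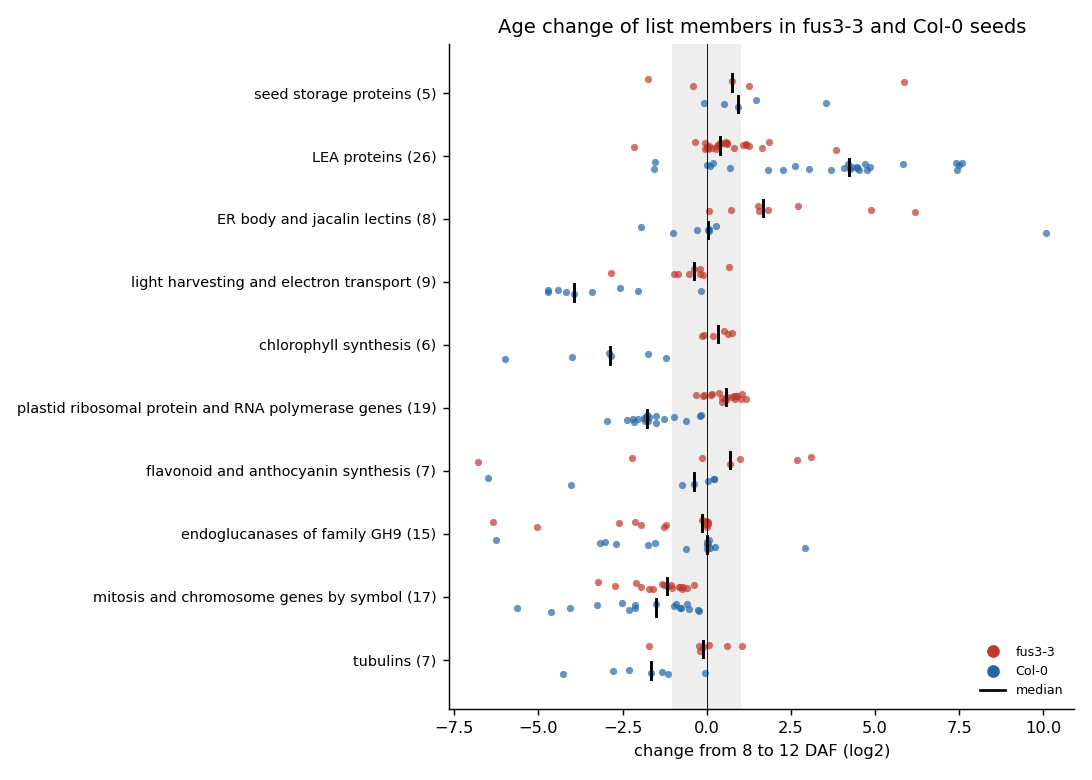
Change from 8 to 12 DAF (log2) of each measured member of 10 gene lists in fus3-3 (red) and Col-0 (blue), with the median of each as a black bar and the zone of less than 2-fold change in grey. The number of members is in brackets. LEA, photosynthesis, chlorophyll and plastid ribosomal genes crowd around 0 in fus3-3 and lie to one side in Col-0.

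Of 27 flavonoid and anthocyanin genes listed, 7 were measured, of which 2 rose and 2 fell (4.33% and 4.84% of all genes). BAN, the anthocyanidin reductase that makes proanthocyanidins of the seed coat, went from 9.35, 10.39 and 9.997 to 3.01, 2.74 and 3.57 (-6.81 ± 0.34, adjusted p = 1.9e-06), as it did in Col-0 (-6.49 ± 0.34). DFR, the dihydroflavonol reductase gene, went from 8.73, 9.26 and 8.19 to 5.94, 6.77 and 6.79 (-2.23 ± 0.36, adjusted p = 0.002), and it fell further in Col-0, by 4.02 on the log2 scale. The anthocyanin glycosyltransferase gene UF3GT went from 3.46, 3.36 and 3.50 to 6.11, 6.13 and 6.16 (2.69 ± 0.12, adjusted p = 8e-07). AT4G14090, an anthocyanin 5-O-glucosyltransferase gene, went from 3.64, 2.66 and 2.65 to 5.85, 6.29 and 6.14 (3.11 ± 0.24, adjusted p = 2.5e-05). Neither rose in Col-0, where they changed by -0.37 and 0.20, and the differences passed the threshold (adjusted p = 3.1e-06 and 0.00027). AT5MAT, the anthocyanin malonyltransferase gene, changed by 0.70 ± 0.16 and stayed low.

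Some cell division genes fell. Of 41 cell cycle and replication genes listed, 4 were measured, of which 2 fell in fus3-3 and 3 in Col-0, with medians of -0.939 and -3.38. Of all genes 4.84% fell in fus3-3 and 9.75% in Col-0. AUR1, an Aurora kinase of cell division, went from 6.45, 6.77 and 6.82 to 3.39, 3.12 and 3.81 (-3.24 ± 0.16, adjusted p = 1.9e-06). AUR2 changed by -1.03 ± 0.13, and it fell short of 2-fold without replicate 1 of 8 DAF, without replicate 3 of 12 DAF or after centring on reference genes (-0.98, -0.995 and -0.91). PRL, an MCM7 replication helicase gene, changed by -0.85 ± 0.13 in fus3-3 and -4.75 ± 0.13 in Col-0, and the difference passed the threshold (adjusted p = 1.4e-06). A wider group of 17 mitosis and chromosome genes, formed by symbol after values had been seen, held 10 that fell and 0 that rose in fus3-3, where 4.84% of all genes fell, and 9 that fell in Col-0. It included TOPII, which encodes topoisomerase II, at -2.099 ± 0.34, the centromeric histone gene HTR12 at -1.58 ± 0.27 and the spindle checkpoint genes BUB3.1 and BUBR1 at -1.32 ± 0.20 and -1.18 ± 0.22, the last with an adjusted p of 0.051 read as pairs. Of 7 tubulin genes, TUB7 fell (-1.71 ± 0.12) and TUB1 rose (1.06 ± 0.27) in fus3-3, while 6 fell in Col-0 (9.75% of all genes). With the 6 fus3-3 arrays alone TUB1 had an adjusted p of 0.094 as pairs and 0.1 unpaired, and no tubulin gene rose without replicate 3 of 8 DAF or replicate 1 of 12 DAF. TUB5 changed by 0.60 ± 0.09 in fus3-3 and -4.28 ± 0.09 in Col-0.

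Cell wall enzymes were grouped by symbol in the same way. Of 15 endoglucanases of family GH9, 6 fell and 0 rose in fus3-3 (4.84% and 4.33% of all genes). Among those that fell were GH9B8, GH9C1 at -5.04 ± 0.61 and GH9A3 at -2.62 ± 0.13. In Col-0, 6 fell (9.75% of all genes). Among 18 expansin genes, whose products loosen walls, EXLA1, EXPA4 and EXPB3 fell, by 4.12, 1.55 and 1.34 on the log2 scale, and EXPA9 and EXPA20 rose, by 2.74 ± 0.38 and 2.49 ± 0.30. XTH19 and XTH16, for xyloglucan endotransglucosylases, rose by 2.28 ± 0.22 and 1.43 ± 0.25, and XTH16 fell in Col-0 (-1.33 ± 0.25). In the TBL family of wall acetylation, TBL45, TBL30 and TBL38 fell, by 4.14, 3.14 and 2.603 on the log2 scale, and TBL37 rose (1.74 ± 0.42), a rise lost without replicate 2 of 8 DAF or of 12 DAF and read as pairs (adjusted p = 0.1). Of 47 UDP-glycosyltransferase genes, 5 rose and 6 fell (4.33% and 4.84% of all genes), with UGT85A2 at 3.09 ± 0.14 and UGT76E2 at -2.58 ± 0.28 among them. Without replicate 3 of 12 DAF 8 rose.

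AtVEX1, the sugar transporter also called SWEET5, went from 8.24 to 3.15 (-5.09 ± 0.20, adjusted p = 5e-07). SWEET7 rose by 1.99 ± 0.26, and SWEET11, a transporter that feeds the embryo, fell (-1.03 ± 0.26). With the 6 fus3-3 arrays alone SWEET11 had an adjusted p of 0.055 as pairs and 0.13 unpaired, and 1 of the 16 SWEET genes fell without replicate 2 or 3 of 8 DAF or replicate 1 or 3 of 12 DAF. Of 6 measured auxin genes, IAA29 rose, from 2.54, 2.55 and 2.93 to 4.47, 3.84 and 4.86 (1.72 ± 0.22, adjusted p = 0.00058), and IAA31 fell, from 4.34, 4.83 and 5.24 to 2.80, 4.08 and 2.80 (-1.58 ± 0.39, adjusted p = 0.019). Of all genes 4.33% rose and 4.84% fell in fus3-3. The IAA31 call was lost with the 6 fus3-3 arrays alone, as pairs (adjusted p = 0.092) or unpaired (adjusted p = 0.089), and without 4 of the 6 fus3-3 arrays taken out singly (adjusted p = 0.055 without replicate 2 of 8 DAF, 0.069 without replicate 3 of 8 DAF, 0.068 without replicate 1 of 12 DAF and 0.065 without replicate 3 of 12 DAF). STOMAGEN, a peptide gene that promotes stomata, went from 5.70, 5.20 and 5.17 to 6.77, 7.42 and 7.22 (1.78 ± 0.26, adjusted p = 0.0012), while in Col-0 it fell (-1.12 ± 0.26). GIS, a trichome regulator gene, went from 6.46, 5.57 and 6.58 to 4.65, 3.49 and 3.63 (-2.28 ± 0.36). SPCH, MUTE and FMA, the bHLH factors of the stomatal lineage, changed by 0.01, 0.38 and 0.05, none past the threshold.

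Of 5 measured gibberellin genes none passed the threshold (1 rose without replicate 2 of 12 DAF), and the receptor gene GID1A had 7.24, 7.12 and 7.17 and 7.23, 6.86 and 7.401. The F-box gene SLY1 changed by -0.92 ± 0.08 (adjusted p = 7e-05), under 2-fold. Of 2 measured cytokinin response genes and 3 of meristem and leaf polarity, none passed. RR16 changed by 0.51 ± 0.33, ARR15 by -0.56 ± 0.32, YAB3 by 0.69 ± 0.17 (adjusted p = 0.018) and PHV by -0.39 ± 0.80. PHV had 2.16, 4.62 and 5.03 and 2.40, 3.18 and 5.07, so the spread within each age exceeded the change. Of the glucosinolate transporters, GTR2 rose, from 5.89, 6.13 and 5.96 to 8.88, 8.19 and 8.22 (2.44 ± 0.26, adjusted p = 0.00017), and GTR1 changed by -0.88 ± 0.31. No listed gene of abscisic acid or raffinose metabolism had a probe set of its own.

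Markers of single seed tissues and of the fruit wall also moved. Of 4 measured seed coat markers, BAN, DELTA-VPE and ARA12, a subtilase of the mucilage, fell, and AT3G50990 had 2.43, 3.45 and 2.39 and 2.301, 2.37 and 2.36. ARA12 went from 11.69, 12.06 and 11.39 to 10.75, 10.61 and 10.06 (-1.24 ± 0.20, adjusted p = 0.0023). The mean over the 4 markers was 8.66 to 9.46 at 8 DAF and 6.32 to 6.47 at 12 DAF. In Col-0 all 4 markers fell, and 3 fell in each of lec1-1, lec2-1 and WS. Of all genes 4.84% fell in fus3-3 and 9.75% in Col-0. Of 4 endosperm markers, AGL62, IKU2 and AT4G36590 stayed between 2.13 and 2.58 on all 6 arrays. MPC, an imprinted endosperm gene for a poly(A)-binding-like protein, went from 2.57, 2.56 and 2.54 to 5.30, 6.08 and 5.62 (3.11 ± 0.15, adjusted p = 1.6e-06). Of the silique wall markers, ALC, a bHLH factor of fruit opening, went from 3.84, 4.41 and 4.57 to 5.53, 4.96 and 5.70 (1.12 ± 0.26, adjusted p = 0.014). With the 6 fus3-3 arrays alone ALC had an adjusted p of 0.086 as pairs and 0.066 unpaired, and its change was 0.91 without replicate 1 of 8 DAF and 0.97 without replicate 3 of 12 DAF. ADPG1, a polygalacturonase gene of fruit opening, had 4.11, 3.81 and 4.26 and 7.80, 6.28 and 4.42 (2.105 ± 1.08, adjusted p = 0.25), with the 12 DAF arrays spread widely. The part of these markers in the other results was not tested, and in whole seeds fewer cells of a type and less RNA per cell cannot be told apart.

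The question of how far the age change of fus3-3 seeds departs from that of wild-type seeds was put to each probe set as the difference between the age changes. This difference passed the threshold for 4168 probe sets (18.3%), 2237 with a higher (9.83%) and 1931 with a lower (8.49%) change in fus3-3. The actin 3' over 5' signal was 5.49 to 5.56 in Col-0 at 8 DAF and 4.83 to 4.9 at 12 DAF, unlike in fus3-3. That of GAPDH moved the other way in Col-0, from 1.54 to 1.61 at 8 DAF to 2.07 to 2.74 at 12 DAF. The part of these signals in the differences was not tested. Of the 1170 probe sets that rose in fus3-3, 441 rose in Col-0 too, which is 37.7% of the fus3-3 list and 21.1% of the Col-0 list. Of the 1291 that fell in fus3-3, 751 fell in Col-0, 58.2% of the fus3-3 list and 29.3% of the Col-0 list. Opposite calls were seen for 98 that rose in fus3-3 and fell in Col-0 and for 52 that fell in fus3-3 and rose in Col-0. Of 1601 probe sets that rose in Col-0 and were not called in fus3-3, the difference itself passed for 1068. Of the 1718 that fell in Col-0 and were not called in fus3-3, the difference passed for 1234.

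**Figure D4:**
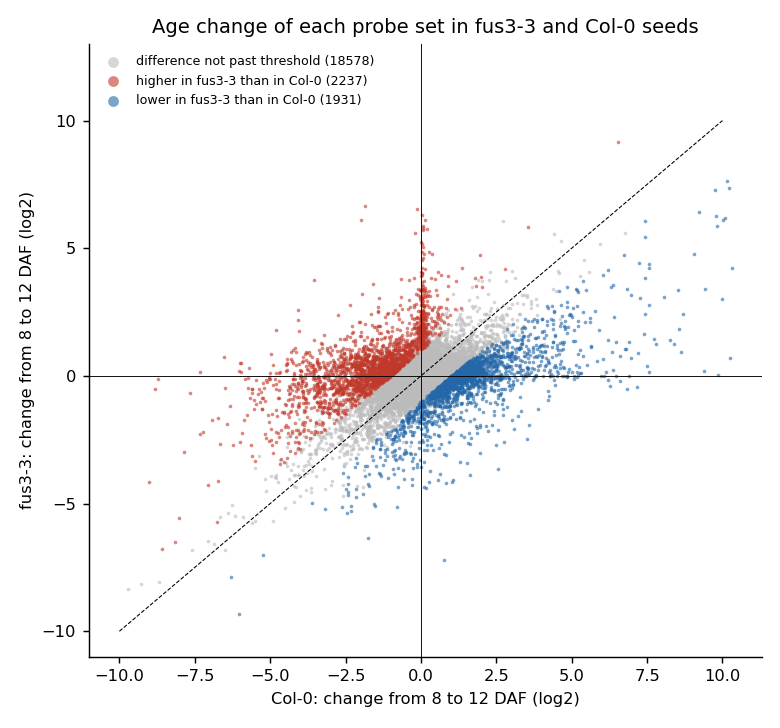
Change from 8 to 12 DAF of each of the 22746 probe sets in Col-0 (horizontal) and fus3-3 (vertical), both log2, with the dashed line marking equal change. Red points (2237) changed higher and blue points (1931) lower in fus3-3 than in Col-0 past the threshold. Much of the red lies left of 0 and much of the blue right of 0, near a fus3-3 change of 0.

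Among genes that changed higher in fus3-3 than in Col-0, AT3G28220 had a difference of 8.09 ± 0.41 and AT4G30450 of 6.65 ± 0.21. AT1G32470, for an H protein of the glycine decarboxylase complex of photorespiration, had 9.72, 9.57 and 9.33 and 10.02, 10.36 and 10.41 in fus3-3 and 9.53, 9.59 and 9.69 and 3.30, 3.002 and 2.95 in Col-0, a difference of 7.24 ± 0.19 (adjusted p = 5.8e-08). In fus3-3 its change was under 2-fold, and every Col-0 array at 12 DAF lay below every other array. AT2G43590, of the chitinase family, went from 2.33, 2.29 and 2.29 to 8.98, 7.14 and 8.01 in fus3-3 (5.74 ± 0.36) and stayed at 2.33 and 2.55 in Col-0. AT4G16980, an arabinogalactan protein gene, fell in Col-0 (-4.79 ± 0.46) and went from 6.59, 5.91 and 5.01 to 7.57, 7.79 and 7.57 in fus3-3 (1.81 ± 0.46), a rise that was not called with the 6 fus3-3 arrays alone, as pairs (adjusted p = 0.065) or unpaired (adjusted p = 0.051), or without any one of replicates 2 and 3 of 8 DAF and 1, 2 and 3 of 12 DAF (adjusted p = 0.051 to 0.069). A further probe set of AT4G16980 changed by -0.10.

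Among those that changed lower, AT2G38900 fell in fus3-3 and was not called in Col-0, with a difference of -7.97 ± 0.36 (adjusted p = 1.2e-06). AT3G58450, of the universal stress protein family, went from 5.89, 4.44 and 4.78 to 6.84, 7.14 and 6.61 in fus3-3 (1.83 ± 0.39, and adjusted p = 0.075 read as pairs) and rose by 8.56 ± 0.39 in Col-0. AT3G60730, a pectin methylesterase gene, rose from 2.33, 1.66 and 1.90 to 5.36, 6.14 and 4.55 in fus3-3, while Col-0 reached 12.65. AT5G24316, a proline-rich protein gene, went from 6.96, 7.57 and 8.98 to 4.81, 6.43 and 4.84 in fus3-3 (-2.48 ± 0.55, with the 6 fus3-3 arrays alone adjusted p = 0.12 as pairs and 0.094 unpaired) and rose in Col-0 (3.51 ± 0.55). The 8 DAF arrays of this gene were spread over 2 log2 units. AT3G21380 and AT1G14940, described above, had differences of -6.28 ± 0.27 and -6.09 ± 0.76.

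The age changes of the lec mutants and of WS are given beside these without a test, since the genotypes lie in other backgrounds and fits. In lec1-1, 1628 probe sets rose (7.16%) and 1317 fell (5.79%). In lec2-1, 1685 rose (7.41%) and 1710 fell (7.52%), and in WS 1580 rose (6.95%) and 2370 fell (10.4%). Of the fus3-3 rises, 61.1% were also rises in lec1-1, 50.3% in lec2-1 and 32.2% in WS, which were 43.9%, 34.9% and 23.9% of those lists. Of the fus3-3 falls, 64.1% were also falls in lec1-1, 61.7% in lec2-1 and 55.2% in WS, or 62.9%, 46.6% and 30% of those lists.

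The medians of light harvesting and electron transport genes lay nearer 0 in the 3 mutants than in WS. The light harvesting list had medians of -0.377 in fus3-3, 0.647 in lec1-1, -0.708 in lec2-1 and -5.43 in WS. PORB changed by 0.50 in fus3-3, 1.42 in lec1-1, 0.67 in lec2-1 and -6.84 in WS. The LEA list had medians of 0.391 in fus3-3, 0.15 in lec1-1, 1.54 in lec2-1 and 1.89 in WS. AT3G15670 changed by 0.17, 0.17, 5.33 and 5.67 in that order. UF3GT changed by 2.69, 1.85, 2.24 and 0.02, and JAL22 by 4.87, 3.69, 4.48 and 0.73.

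Other genes differed in direction or size between the mutants. AT2G38900 changed by -7.19 in fus3-3 and by 2.41, 2.45 and 2.75 in lec1-1, lec2-1 and WS. JAL33 changed by 2.73 in fus3-3 and by 0.29, 0.04 and 0.10 in the others, where its signal was low on every array. AT2G43590 changed by 5.74 and by 0.29, 0.04 and 0.10. DFR changed by -2.23 in fus3-3, 1.397 in lec1-1, 1.25 in lec2-1 and -3.62 in WS. BBM changed by -2.36 in fus3-3 and by 0.01, -0.28 and 0.51 in the others.

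**Figure D5:**
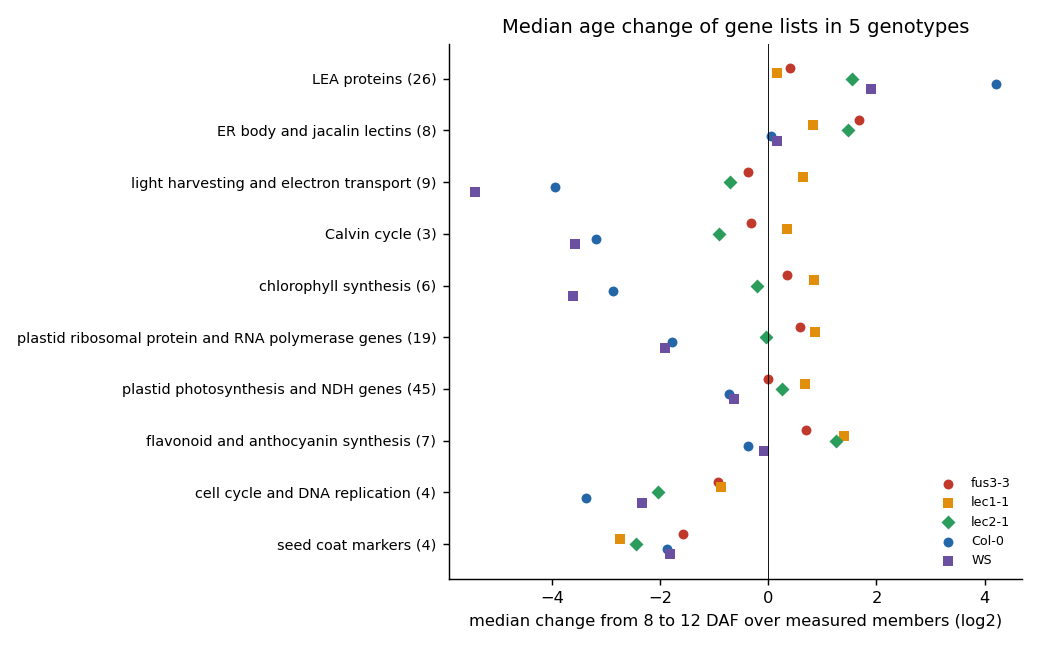
Median change from 8 to 12 DAF (log2) over the measured members of 10 gene lists in 5 genotypes, with the number of members in brackets and no error shown, since members are not replicates. The 3 mutants lie nearer 0 than Col-0 and WS for light harvesting, Calvin cycle, chlorophyll and plastid ribosomal genes. For plastid photosynthesis and NDH genes the medians were -0.729 in Col-0, -0.644 in WS and 0.671 in lec1-1.

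The genes of highest signal in fus3-3 seeds that changed by less than 0.2 were atpE and atpB, of the plastid ATP synthase, and the cytosolic ribosomal protein genes AT3G60245, AT1G52300, AT5G20290 and AT5G15200. The gene atpE had 14.33, 14.20 and 14.19 at 8 DAF and 14.49, 14.40 and 14.26 at 12 DAF, and AT5G15200 had 13.98, 13.78 and 13.78 and 13.97, 13.75 and 14.001, so the ages overlapped in both. In Col-0 atpE changed by -1.16 ± 0.07 and atpB by -1.02 ± 0.09. Of 7 measured reference genes, none passed the threshold in fus3-3, with a median change of -0.0761, and GAPC2, the glycolytic dehydrogenase gene, changed by -0.43 ± 0.10. In Col-0 GAPC2 fell (-1.13 ± 0.10).

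Of the 9233 probe sets paired with no gene or with several, 591 rose and 642 fell in fus3-3, 13.4% in all, against 10.8% of all probe sets. The probe set 267122_at went from 10.34, 10.34 and 10.50 to 2.28, 2.34 and 2.31, and 267125_at fell by 7.87 on the log2 scale. The probe sets 245325_at and 250780_at rose, by 6.64 and 6.29. Among genes adjacent in the TAIR10.1 table with both measured, 10 pairs rose or fell together by at least 4-fold. They included AT5G26270 with AT5G26280, AT2G43610 with AT2G43620 of the chitinase family, and AT4G24130 with AT4G24140. Over 5845 measured adjacent pairs, the neighbours of genes that rose had risen in 8.2% of cases and those of genes that fell had fallen in 8.96%. Of all genes 4.33% rose and 4.84% fell.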

How the data were processed

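Seeds were measured on Affymetrix arrays, 30 in all, 3 for each of 10 groups. Per the submitters' processing notes, the tools behind the deposited log2 signals were GCRMA and GCOS 1.3. For the GCRMA version and for joint processing of the arrays, nothing is given in the sources used here. Labelled RNA was made from total RNA with the One-Cycle kit, per the labels' protocols.

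Of 22810 probe sets, 64 controls were left out. The platform annotation pairs 13513 probe sets with 1 gene, 503 with several and 8730 with none. Symbols were updated through the TAIR10.1 gene table, and genes it lacks keep the annotation's name. For a gene with several probe sets the one of highest mean was used. Roles stated for genes known by locus alone are background knowledge. FUS3, LEC1, LEC2 and ABI3 have no probe set of their own here. Promoter and protein sequences were not used here.

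The values were fitted with limma 3.58.1 in R 4.3.3 over the 12 fus3-3 and Col-0 arrays, without the replicate number, and over the 18 WS, lec1-1 and lec2-1 arrays, with Benjamini-Hochberg adjustment over all 22746 probe sets. The fit was tested on simulated data. Python 3.11.15, pandas 2.3.3 and matplotlib 3.10.9 made the tables and plots. Same-numbered fus3-3 arrays correlated in their deviations from the group means by 0.238, 0.212 and 0.426, so the numbers were taken to pair the ages, a pairing found in the data. The Col-0 12 DAF arrays are numbered 1-1, 1-2 and 1-3, and same-numbered Col-0 arrays correlated by 0.0252 to 0.0919. The labels describe them as biological replicates, yet whether they are separate samples in the way of the other groups is not clear from this numbering, so SEs and p-values for Col-0 and for the difference may measure a smaller spread.

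The members and lists were chosen with earlier results of these data known. Of 558 entries in 27 lists, 140 were measured. A further 13 lists were formed by gene symbol after values had been seen, and lists by gene description could not be formed. Named were the 12 largest fitted rises and falls with no overlap of arrays, from every list at most 4 members that rose and 4 that fell (otherwise the 2 of highest mean), the 6 genes most higher and 6 most lower against Col-0, the 6 steadiest genes of highest signal, and all markers and regulators. Other members named in the text were chosen after their values were seen. Alternatives were normalization, centring, filters, thresholds, variance model, samples fitted, pairing and leaving out each array.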

Additional observations from a re-analysis of the deposited data

Results flagged for a closer look

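Singled out here are genes whose change from 8 to 12 DAF in fus3-3 seeds differed from that in Col-0 seeds, by the test of the difference itself in limma (an interaction of genotype and age). That test passed for 4168 probe sets (18.3%) and for 57 of the 93 named genes, against 16.1% of all genes. The 93 include genes chosen for this difference or for a large change, so their share says nothing about them. Many differences rest on a group mean under 3, and no order of size is read from the values. Values are differences of log2 changes, 3 arrays per group, and give no cause.

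The difference, fus3-3 minus Col-0, was positive for AT3G28220 at 8.09, AT1G32470 at 7.24, AT4G30450 at 6.65, AT4G16980 at 6.60, AT1G52100 at 5.72 and AT2G43590 at 5.53. Positive values were also seen for JAL22 at 4.59, AT4G21870 at 4.04, AT1G74470 at 3.54, UF3GT at 3.06, MPC at 3.03 and AT4G14090 at 2.91. The same sign was found for STOMAGEN at 2.90, RCA at 2.87, XTH16 at 2.76, JAL33 at 2.66, AT1G14950 at 2.64 and AT1G03890 at 2.29. It was above 0 for NAI1 at 2.11, HEMB1 at 1.93, DFR at 1.79, AT5G60630 at 1.68, AT3G50990 at 1.66 and AUR1 at 1.39. It was above 0 also for PRK at 1.35, atpE at 1.3, AT5G15180 at 1.05 and IAA29 at 1.05.

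The difference, fus3-3 minus Col-0, was negative for AT2G38900 at -7.97, AT3G58450 at -6.73, AT3G21380 at -6.28, AT1G14940 at -6.09, AT3G60730 at -6.03 and AT5G24316 at -5.99. Negative values were also seen for GH9B8 at -4.62, AT3G04170 at -3.96, CYP78A9 at -3.94, BGLU19 at -3.91, AT2G23110 at -3.59 and AT2G18370 at -3.52. The sign was the same for LEA18 at -3.42, AT1G62070 at -3.29, AGL67 at -3.25, BBM at -2.98, AT1G22600 at -2.94 and FaTA at -2.88. It was below 0 for AT1G14930 at -2.87, AT3G04150 at -2.81, AT3G58550 at -2.50, FACT at -2.49, IAA31 at -2.35 and AT5G49180 at -1.76. It was below 0 also for AT4G36700 at -1.67, RR16 at -1.56, AT5G37670 at -1.5, OLEO3 at -1.45 and AT1G30700 at -1.35.

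Groups of 3 arrays are too small for a test of single arrays that stand apart from the others.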

How the results depend on the processing

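With 1 probe set per named gene (13355 tested, so fewer could pass) the counts past the threshold were 1209 in fus3-3, 2421 in Col-0, 2111 for the difference, 1489 in lec1-1, 1734 in lec2-1 and 2042 in WS. With no fold minimum they were 4352 in fus3-3, 8287 in Col-0, 7799 in lec1-1, 8266 in lec2-1 and 13306 in WS. Leaving out 1 array at a time gave 2272 to 2442 in fus3-3, 4323 to 4822 in Col-0, 3784 to 4364 for the difference, 2905 to 3062 in lec1-1, 3195 to 3544 in lec2-1 and 3866 to 4117 in WS. The replicate block gave 2461 in fus3-3 over 12 arrays (1178 rose and 1283 fell) and 2056 over the 6 fus3-3 arrays, against 2076 for those 6 without the block. Centring on 7 reference genes moved the median fus3-3 change from 0.00563 to 0.125 and the calls to 1424 risen and 1127 fallen. In Col-0 it gave 2726 risen and 2181 fallen against 2094 and 2567, and in WS 2204 and 1958 against 1580 and 2370. GAPC2, 1 of these 7 reference genes, itself fell in Col-0 (-1.13 ± 0.10). Its part in these shifts and their cause were not tested.

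Of 2225 values of 93 named genes over 24 settings, 2180 kept direction and side of the threshold, 37 lost the call in 9 genes, 8 gained it in 6 genes, and 0 calls turned to the opposite direction. The replicate block over 12 arrays cost 0 of the 93 a call. It gives fus3-3 and Col-0 arrays of the same number a shared effect, so it does not test the pairing within fus3-3. The 6 fus3-3 arrays alone, without the block, lost PAP85, IAA31, ALC, AT5G24316 and AT4G16980, and with it also EEL, LEA18 and AT3G58450. Of genes named besides the 93, TUB1, SWEET11, TBL37 and BUBR1 lost the call in that paired fit. With 3 arrays per group and many signals near background, small changes of low genes could not be measured.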
